A study of Mus musculus with 11 samples.

Results

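Bone morphogenetic proteins (BMPs) and their secreted antagonists were followed in the neural tube of mouse embryos as 4 ligands, Bmp2, Bmp4, Bmp5 and Bmp7, and 3 antagonists, Nog (noggin), Chrd (chordin) and Fst (follistatin). These 7 of 18193 genes were chosen by name from the probe sets that carry exactly 1 gene symbol on an Affymetrix array of the mouse genome. They had 12 such probe sets, and for each gene the probe set with the highest mean over all 11 arrays leads the account. The study compared closed neural tube with open neuroepithelium, the still unfused plate caudal to the point of closure, at embryonic day 9.5 (E9.5) and E8.5.

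All embryos were C57BL/6 mice without a stated mutation or treatment. The groups held 3 arrays of closed neural tube at E9.5, 3 of open neuroepithelium at E9.5, 2 of closed neural tube at E8.5 and 3 of open neuroepithelium at E8.5. Tissue came from 111 embryos and could be pooled by litter, and the labels call the arrays of a group biological replicates. The authors hybridized 12 arrays and removed 1 of closed E8.5 tissue. Embryos stood in 2.5% pancreatin and 0.5% trypsin for 8 min at E9.5 or 5 min at E8.5, and the notochord that clung to the neural tissue stayed with it. RNA (50 ng a sample) was amplified in a 2-cycle labelling protocol. Closed tissue is always rostral to open tissue, so closure and axial level cannot be told apart in any comparison of the regions. Stage and incubation time also changed together.

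BMPs are secreted dimers of the transforming growth factor beta family that bring type I and type II receptors together. The receptors phosphorylate Smad1, Smad5 and Smad9, which enter the nucleus with Smad4 and switch on genes such as the Id and Msx families. Noggin and chordin bind BMPs outside the cell and keep them from their receptors, and follistatin binds activins tightly and some BMPs as well. In the neural tube, surface ectoderm and roof plate supply BMPs dorsally, the notochord secretes noggin and chordin ventrally, and the balance is known to bear on the bending of the mouse neural plate.

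Every value below is a deposited log2 signal, so a step of 1 is a doubling, and probe sets of different genes are not set against each other. A gene was tested where its mean over the 11 arrays reached 4.30, the 40th percentile of all probe sets, which left 13338 genes. Differences come from limma's moderated linear model over the 4 groups, with Benjamini-Hochberg adjustment over all 13338 genes and a threshold of 0.05. Of the 7 members 6 were tested, and Bmp2 lay below the filter. The groups hold 2 or 3 arrays, which limits the precision of every difference.

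Marker lists placed the tissue. Neural markers (Sox2, Sox1, Sox3, Cdh2, Pax6, Nes; 6 of 6 above the filter) had a mean signal of 9.76 to 10.01 in closed E9.5, 8.80 to 9.16 in open E9.5, 10.01 to 10.24 in closed E8.5 and 8.61 to 8.88 in open E8.5 arrays. Caudal plate markers ran the other way, at 7.53 to 7.67 in closed E9.5, 10.15 to 10.54 in open E9.5, 7.24 to 7.47 in closed E8.5 and 10.09 to 10.63 in open E8.5 arrays. The gap in the neural mean was uneven over its markers. At E9.5 Pax6 had 9.10 to 9.42 in closed and 6.06 to 6.28 in open arrays. Sox2 had 11.34 to 11.63 in closed and 10.99 to 11.15 in open arrays there, and Sox3 overlapped at both stages. Blood markers were at 7.07 to 8.03 in the E9.5 arrays and 4.99 to 6.43 in the E8.5 arrays, and their part in the stage differences below was not tested. One array stood apart in its cells: closed E8.5 replicate 2 had a mean of 5.60 over 9 somite markers, 8 of them above the filter, against 4.15 to 4.36 in the other 10 arrays, where 3 or 4 were. In RNA quality, open E9.5 replicates 1 and 2 had the largest excess of 3-prime over 5-prime control signal, 2.20 and 2.48 on the log2 scale, against 1.14 to 1.82 in the other 9 arrays.

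Between the regions, the members did not move as a block. Fst was higher in closed than in open tissue at both stages and Bmp4 was lower at both. Bmp7 and Chrd passed in neither direction at E9.5 and were lower in closed tissue at E8.5. Bmp5 and Nog passed at neither stage. At E9.5, 2 of the 6 tested members were past the threshold, 1 higher and 1 lower, where 8.54% of all tested genes were (2.75% higher and 5.79% lower). At E8.5, 4 of 6 were, 1 higher and 3 lower, where 7.17% of all tested genes were (3.79% higher and 3.38% lower). The median difference of the 6 members was 0.02 at E9.5 and -0.07 at E8.5, beside -0.01 and 0.00 over all tested genes, since the members went in both directions. The closed and open arrays did not overlap for 4 of 6 members at E9.5 (22.5% of all tested genes) and for 5 of 6 at E8.5 (27.5%).

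**Figure D1:**
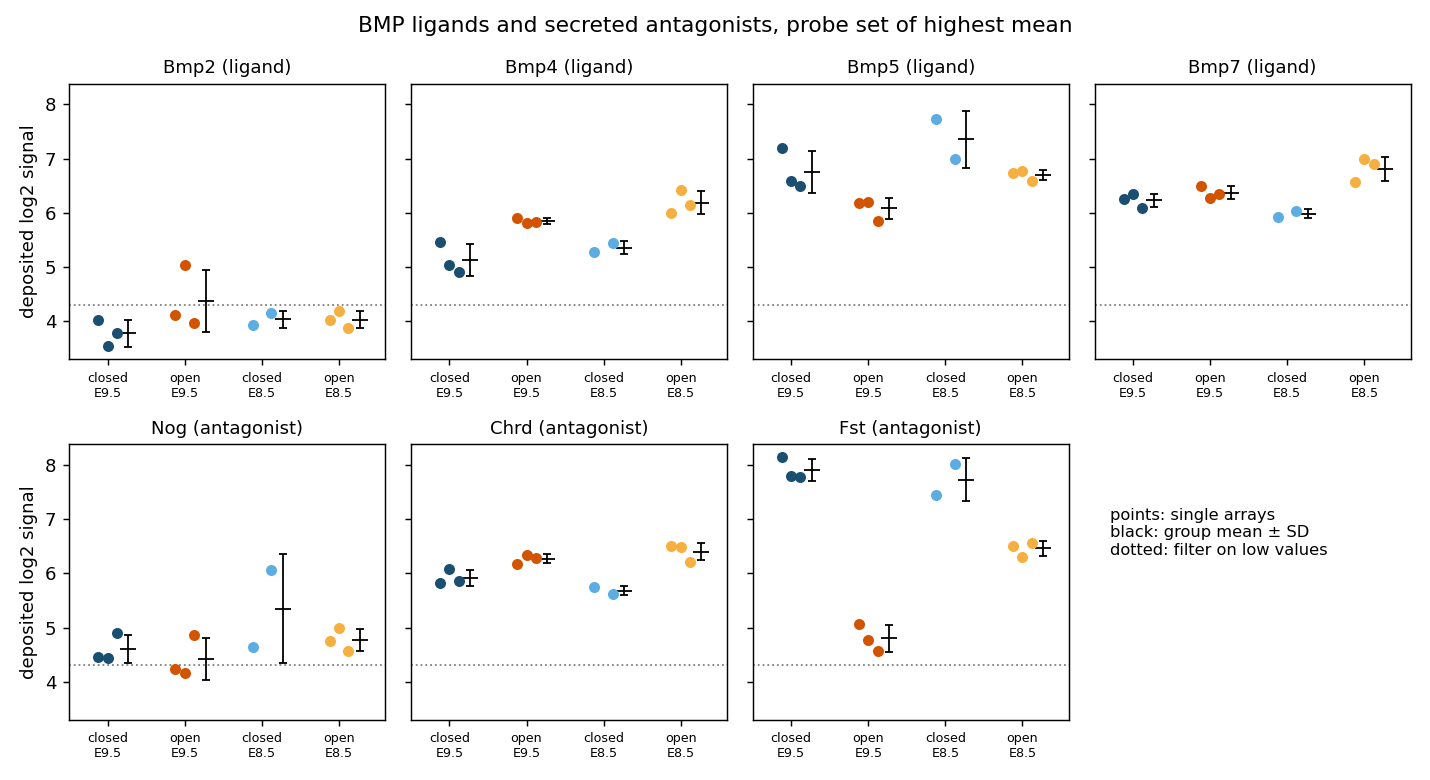
Deposited log2 signal (vertical axis) of the leading probe set of each of the 7 members in every array, with arrays grouped along the horizontal axis by region and stage. Points are single arrays, black marks are group means with their SD, and the dotted line is the filter at 4.30. Fst separates the 2 open groups from both closed groups, and nearly all Bmp2 points lie under the filter.

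**Figure D2:**
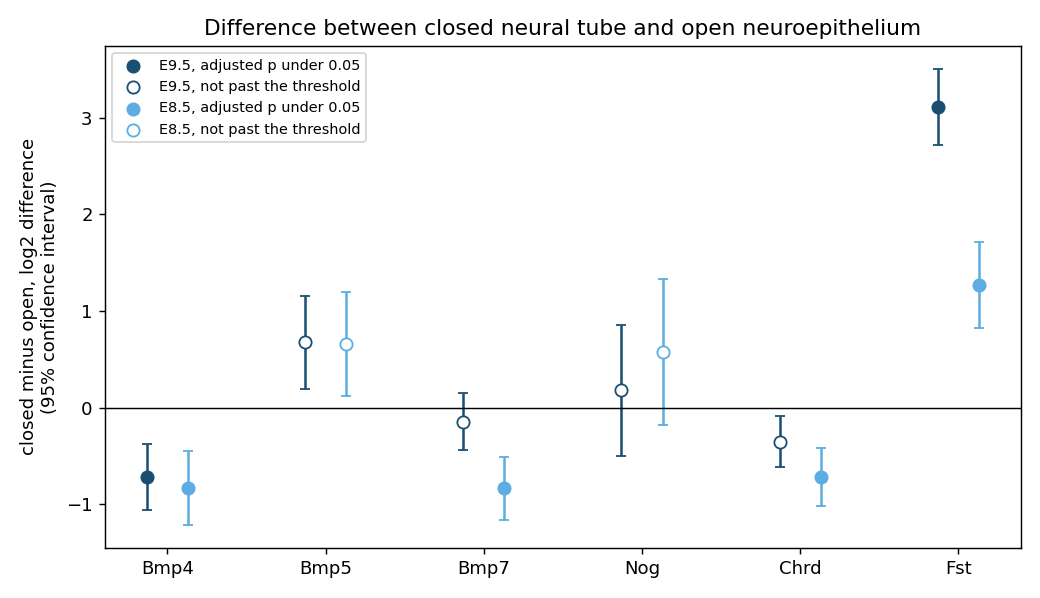
Closed minus open difference in log2 signal (vertical axis) for the 6 tested members at E9.5 (dark) and E8.5 (light), with 95% confidence intervals. Filled points passed an adjusted p of 0.05. Fst lies at 3.11 and 1.27, and Bmp4 at -0.72 and -0.83.

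Bmp4, a ligand of the surface ectoderm and dorsal midline (probe set 1422912_at), had 5.47, 5.03 and 4.90 in closed E9.5 arrays, against 5.91, 5.81 and 5.83 in open E9.5 arrays. At E8.5 it had 5.27 and 5.44 in closed arrays, against 5.99, 6.41 and 6.15 in open arrays. Every closed array was below every open array, whichever the stage. The difference at E9.5 was -0.72 (SE 0.16; 95% interval -1.06 to -0.37), 1.64-fold lower in closed tissue, with an adjusted p of 0.013. The difference at E8.5 was -0.83 (SE 0.17; 95% interval -1.21 to -0.45), 1.78-fold lower, with an adjusted p of 0.0115. In such bulk tissue, fewer cells of a type and less RNA per cell cannot be told apart. The E9.5 call was lost without open replicate 1 (-0.69, adjusted p 0.0565), without closed replicate 2 (-0.67, 0.0621) and without closed replicate 3 (-0.60, 0.0635). It was also lost with both open arrays of high 3-prime signal left out (-0.69, adjusted p 0.171), and the E8.5 call was lost without closed replicate 1 (-0.74, adjusted p 0.0891).

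The mean of the surface ectoderm markers was also lower in closed arrays, though not for every marker. Over 10 markers, 9 of them above the filter and Cdh1 below it, it was 5.61 to 5.63 in closed E9.5 arrays and 5.98 to 6.15 in open E9.5 arrays. It was 5.85 in both closed E8.5 arrays and 6.48 to 6.62 in open E8.5 arrays. At E9.5, 4 of the 10 (Grhl3, Epcam, Esrp1 and Cdh1) were lower in every closed than in every open array, Tfap2a was higher and 5 overlapped. At E8.5, 7 were lower, Tfap2a was higher and 2 overlapped. The log2 of their summed signal overlapped at E9.5, at 9.65 to 9.9997 in closed and 9.9949 to 10.13 in open arrays, and was 9.61 to 9.85 in closed and 10.47 to 10.84 in open arrays at E8.5. Presomitic mesoderm markers had a mean of 4.93 to 5.04 in closed E9.5, 5.94 to 6.42 in open E9.5, 4.69 to 4.85 in closed E8.5 and 6.31 to 6.59 in open E8.5 arrays. Of these 6 markers, Tbx6, Hes7 and Dll3 carried the gap at both stages, and Msgn1 and Mesp2 overlapped at both. Roof plate markers, 4 of 5 above the filter, had a mean of 6.37 to 6.52 in closed E9.5, 6.17 to 6.33 in open E9.5, 6.42 to 7.03 in closed E8.5 and 6.30 to 6.53 in open E8.5 arrays. Among them Wnt1 and Msx2 were higher in every closed than in every open array of their stage, and Wnt3a, which also marks the caudal plate, was lower. For Msx2 at E9.5 the gap was small, from 6.3217 in the highest open to 6.3395 in the lowest closed array. Its limma difference there was 0.08 (adjusted p 0.824). The part of these lists in the differences of Bmp4, and in those of Bmp7 and Chrd at E8.5, was not tested.

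**Figure D3:**
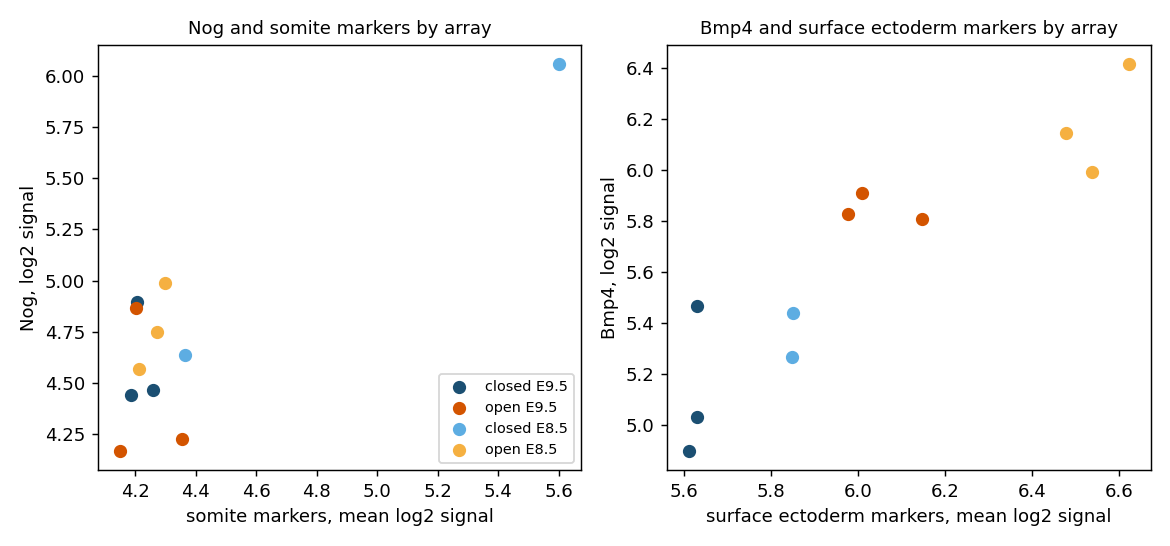
Left, Nog against the mean log2 signal of 9 somite markers; right, Bmp4 against that of 10 surface ectoderm markers. Each point is 1 of the 11 arrays, coloured by group. Closed E8.5 replicate 2 stands alone at the upper right of the left panel (5.60 and 6.06), and in the right panel open arrays lie above and to the right of closed arrays of the same stage.

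Bmp7, a ligand that pairs with Bmp4 or Bmp2 in heterodimers (1435479_at), had 6.25, 6.34 and 6.10 in closed E9.5 arrays, against 6.50, 6.28 and 6.34 in open E9.5 arrays. It had 5.92 and 6.04 in closed E8.5 arrays, against 6.57, 6.98 and 6.89 in open E8.5 arrays. The regions overlapped at E9.5 and were apart at E8.5. The E9.5 difference was -0.14 (SE 0.13; 95% interval -0.44 to 0.15; adjusted p 0.634). The E8.5 difference was -0.83 (SE 0.15; 95% interval -1.16 to -0.51), 1.78-fold lower in closed tissue, with an adjusted p of 0.00418. The change of the region difference between the stages was 0.69 (SE 0.20) and did not pass (adjusted p 0.188). The second Bmp7 probe set, 1418910_at, had 3.92 and 4.61 in closed E8.5 arrays, against 4.82, 5.98 and 5.36 in open E8.5 arrays. When all 23203 probe sets above the filter were tested one by one, its E8.5 difference of -1.12 (SE 0.38) did not pass (adjusted p 0.165). The third, 1432410_a_at, stayed under the filter in every array.

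Bmp5, a ligand known in mouse from the short ear locus (1455851_at), had 7.20, 6.58 and 6.49 in closed E9.5 arrays, against 6.18, 6.21 and 5.85 in open E9.5 arrays. It had 7.72 and 6.99 in closed E8.5 arrays, against 6.73, 6.78 and 6.58 in open E8.5 arrays. Closed arrays were above the open arrays of their stage throughout, the opposite order to Bmp4. The differences were 0.67 at E9.5 (SE 0.22; 95% interval 0.19 to 1.16; adjusted p 0.0907) and 0.66 at E8.5 (SE 0.25; 95% interval 0.12 to 1.19; adjusted p 0.188), and neither passed. With the replicate number as a block, the E9.5 difference passed at an unchanged 0.67 (adjusted p 0.0149). It also passed without closed E8.5 replicate 1 or 2 (adjusted p 0.0436 and 0.044), with array weights (0.56, 0.0158) and with the 3-prime signal as a covariate (0.92, 0.00292). It did not pass under the other alternatives, and without closed E9.5 replicate 1 it was 0.45 (adjusted p 0.273). The E8.5 difference was 0.29 (adjusted p 0.635) without closed replicate 1 and 1.03 (adjusted p 0.0469) without closed replicate 2. With the mean of all 3 Bmp5 probe sets the differences were 0.31 at E9.5 (adjusted p 0.231) and 0.26 at E8.5 (adjusted p 0.526). The other Bmp5 probe sets, 1421282_at and 1421283_at, had group means of 4.14 to 4.47 and 3.96 to 4.24, near or under the filter.

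Bmp2, a close relative of Bmp4 (1423635_at), had 4.02, 3.53 and 3.77 in closed E9.5 arrays, against 4.11, 5.03 and 3.97 in open E9.5 arrays. It had 3.92 and 4.14 in closed E8.5 arrays, against 4.02, 4.19 and 3.87 in open E8.5 arrays. Only open E9.5 replicate 2 was above the filter, and that array also had the largest 3-prime excess. With no filter, and 18193 genes tested, Bmp2 differed by -0.60 (SE 0.23; adjusted p 0.193) between closed and open tissue at E9.5 and by 0.01 (SE 0.25; adjusted p 0.999) at E8.5.

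Fst, the follistatin gene (1434458_at), had the largest region difference of the members tested. It had 8.15, 7.81 and 7.78 in closed E9.5 arrays, against 5.07, 4.77 and 4.57 in open E9.5 arrays. It had 7.45 and 8.02 in closed E8.5 arrays, against 6.51, 6.31 and 6.56 in open E8.5 arrays. Both closed groups lay on 1 level, and the open groups lay below them and apart from each other. The difference at E9.5 was 3.11 (SE 0.18; 95% interval 2.72 to 3.51), 8.64-fold higher in closed tissue, with an adjusted p of 5.47e-07. At E8.5 it was 1.27 (SE 0.20; 95% interval 0.83 to 1.71), 2.41-fold higher, with an adjusted p of 0.00186. The means of the neural and neural crest markers were higher in closed tissue too, though not for every marker. Of 6 neural markers, 4 were higher in every closed than in every open array at E9.5 and 5 at E8.5, and the rest overlapped. Of 6 crest markers, 5 were higher at E9.5 and 1 overlapped. At E8.5, 4 crest markers were higher, Snai2 was lower and 1 overlapped. The 6 crest markers had a mean of 7.22 to 7.29 in closed E9.5, 5.54 to 6.08 in open E9.5, 6.92 to 7.42 in closed E8.5 and 5.54 to 5.82 in open E8.5 arrays. Ednrb had the widest gap, at 9.71 to 9.87 in closed and 4.55 to 5.37 in open E9.5 arrays. Sox10 had 6.28 to 6.57 in closed and 5.83 to 6.21 in open E9.5 arrays. The part of either list in the Fst difference was not tested.

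The region difference of Fst was itself larger at E9.5 than at E8.5. The change was 1.84 on the log2 scale (SE 0.27; 95% interval 1.25 to 2.43; adjusted p 0.00588), and Fst was the 1 of 6 tested members past the threshold for it, where 1.25% of all tested genes were (0.3% upward and 0.952% downward). The second Fst probe set, 1421365_at, had 7.38, 7.31 and 7.48 in closed E9.5 arrays, against 5.28, 5.03 and 5.46 in open E9.5 arrays. It had 6.50 and 8.08 in closed E8.5 arrays, against 6.01, 6.58 and 6.04 in open E8.5 arrays. Its regions were apart at E9.5 and overlapped at E8.5, and the 8.08 came from the closed array with high somite markers, whose part in it was not tested. Tested one by one, it passed at E9.5 (2.13, SE 0.33, adjusted p 0.00229) and not at E8.5 (1.08, SE 0.36, adjusted p 0.165). Its change between the stages was 1.05 (SE 0.49; adjusted p 0.62), and with the mean of both probe sets the change was 1.45 (adjusted p 0.0716). The change between stages therefore rests on the leading probe set, and the higher signal in closed tissue at E9.5 does not.

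**Figure D4:**
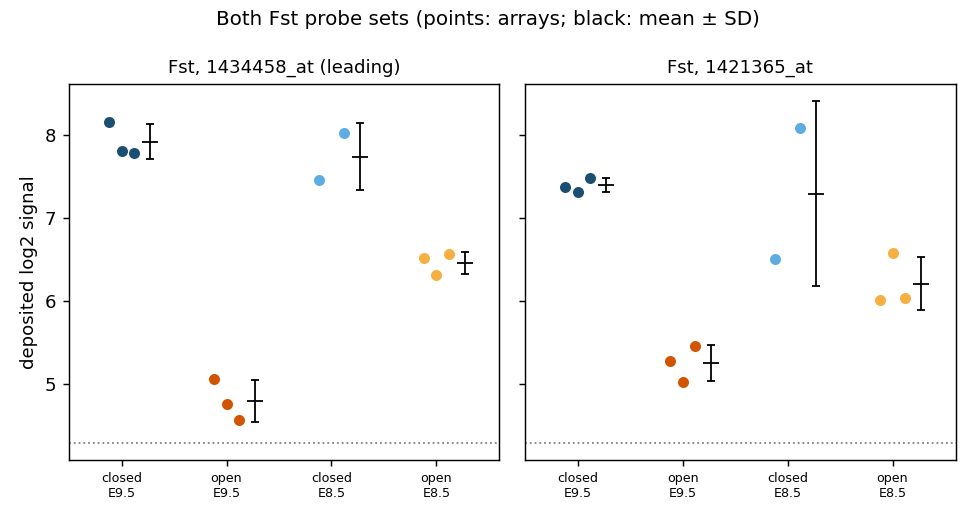
Deposited log2 signal (vertical axis) of both Fst probe sets in every array, grouped by region and stage along the horizontal axis, with group means and SD in black. On both probe sets the 3 closed E9.5 arrays lie above 7.3 and the 3 open E9.5 arrays below 5.5. The 2 closed E8.5 arrays lie at 6.50 and 8.08 on 1421365_at.

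Chrd, which encodes chordin (1417304_at), had 5.82, 6.09 and 5.85 in closed E9.5 arrays, against 6.18, 6.35 and 6.29 in open E9.5 arrays. It had 5.74 and 5.62 in closed E8.5 arrays, against 6.51, 6.49 and 6.22 in open E8.5 arrays. Closed arrays were below open arrays at both stages. The E9.5 difference of -0.35 (SE 0.12; 95% interval -0.62 to -0.08) did not pass (adjusted p 0.117). The E8.5 difference was -0.72 (SE 0.14; 95% interval -1.02 to -0.42), 1.65-fold lower in closed tissue, with an adjusted p of 0.00593. The change between stages did not pass (0.37, SE 0.18, adjusted p 0.564). Without closed replicate 2 the E8.5 call was lost (-0.66, adjusted p 0.0592). Notochord markers, 2 of 3 above the filter, had a mean of 7.60 to 7.85 in closed E9.5 and 7.12 to 7.19 in open E9.5 arrays, the reverse of the order of Chrd. They were at 7.30 to 7.57 in closed E8.5 and 7.40 to 7.67 in open E8.5 arrays, which overlap, but the markers split there. Shh had 9.99 and 10.23 in closed E8.5 arrays, against 11.06, 11.12 and 10.81 in open E8.5 arrays, the order of Chrd, and Foxa2 ran the other way. The log2 of the summed signal of the 3 markers is mostly that of Shh, the strongest of them. It was 10.34 to 10.66 in closed and 10.96 to 11.29 in open E8.5 arrays. At E9.5 it was 11.10 to 11.40 in closed and 10.41 to 10.72 in open arrays, the reverse of the order of Chrd. The part of these markers in the Chrd difference was not tested.

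Promoters are shown for Bmp4 and Chrd, a ligand and an antagonist that were lower in closed tissue at E8.5 and have an entry in the RefSeq table used (GRCm38.p6), which held 3 of the 7 members. Each window runs from 250 bases before to 50 bases after the start that the table uses, 5′ to 3′ on the strand of the gene. That of Bmp4 is chr14:46390620-46390919 on the minus strand, and that of Chrd is chr16:20732877-20733176 on the plus strand. The Chrd window lies inside the RefSeq span of the gene, which begins upstream of it at position 20731425. Capitals mark matches to GGCGCC, a GC-rich element bound by BMP Smads, and to CAGAC or its reverse complement GTCTG, a core bound by Smad4.
Bmp4: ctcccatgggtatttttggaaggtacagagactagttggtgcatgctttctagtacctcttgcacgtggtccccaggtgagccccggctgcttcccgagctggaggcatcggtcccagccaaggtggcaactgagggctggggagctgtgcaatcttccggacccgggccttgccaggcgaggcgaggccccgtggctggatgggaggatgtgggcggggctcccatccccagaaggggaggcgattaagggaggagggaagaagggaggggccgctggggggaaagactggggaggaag
Chrd: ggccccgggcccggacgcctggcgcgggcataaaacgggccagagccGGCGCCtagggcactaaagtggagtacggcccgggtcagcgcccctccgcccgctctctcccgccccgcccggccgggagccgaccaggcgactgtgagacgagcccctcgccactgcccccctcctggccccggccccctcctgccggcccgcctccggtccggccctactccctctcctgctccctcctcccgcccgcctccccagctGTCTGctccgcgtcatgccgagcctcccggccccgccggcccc
The window of Chrd, 78.3% G or C, held 1 match of each motif, and that of Bmp4, 64% G or C, held 0. Among all 32851 promoters of this length in the table, 11.9% held GGCGCC, which reads the same on both strands, and 49.6% held CAGAC on either strand. The Bmp5 window held 1 CAGAC match and 0 of GGCGCC. A match is a run of letters and not a measured binding site.

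Nog, which encodes noggin (1422300_at), had 4.46, 4.44 and 4.89 in closed E9.5 arrays, against 4.23, 4.17 and 4.87 in open E9.5 arrays. It had 4.64 and 6.06 in closed E8.5 arrays, against 4.75, 4.99 and 4.57 in open E8.5 arrays. All 4 groups overlapped with their neighbours in level, and the single high value came from closed E8.5 replicate 2, the array with high somite markers, whose part in it was not tested. Only 1 of the 3 open E9.5 arrays of Nog was above the filter. Signal near the floor is compressed, so the size of the Nog difference at E9.5 is uncertain. The differences were 0.18 at E9.5 (SE 0.31; 95% interval -0.50 to 0.85; adjusted p 0.818) and 0.58 at E8.5 (SE 0.35; 95% interval -0.18 to 1.33; adjusted p 0.556). Without closed E8.5 replicate 2 the E8.5 difference was -0.13 (adjusted p 0.887), and without closed E8.5 replicate 1 it was 1.29 (adjusted p 0.0173). With the 3-prime signal as a covariate it was 0.78 (adjusted p 0.0313), so neither the sign nor the call at E8.5 is settled by these arrays.

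Between the stages, in open neuroepithelium, Fst was the 1 of 6 tested members past the threshold, where 5.02% of all tested genes were (3.61% higher and 1.42% lower). It fell at E9.5 by 1.66 (SE 0.18; 95% interval of the difference -2.06 to -1.27), 3.16-fold lower than at E8.5, with an adjusted p of 0.000278. The second Fst probe set differed by -0.95 (SE 0.33) in the test of single probe sets and did not pass (adjusted p 0.173). The leading probe set differed by -1.89 (adjusted p 0.00622) with both open E9.5 arrays of high 3-prime signal left out. The other 5 members also had negative differences without passing. These were -0.62 for Bmp5 (adjusted p 0.156), -0.44 for Bmp7 (0.0947), -0.34 for Bmp4 (0.296), -0.35 for Nog (0.593) and -0.13 for Chrd (0.605). The median of the 6 was -0.39, against -0.02 over all tested genes, and the stages did not overlap for 4 of 6 members, where 21.8% of all tested genes did not overlap. With array weights Bmp5 (-0.49, adjusted p 0.017) and Bmp7 (-0.36, 0.0167) passed as well. Bmp5 also passed with only the open groups in the fit (adjusted p 0.0447) and with the 3-prime covariate (-0.96, 0.00834).

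In closed neural tube, limma called 0 of the 6 tested members between E9.5 and E8.5, where 2.42% of all tested genes passed (0.96% higher and 1.46% lower), and 1 of 6, Bmp5, had an unadjusted p under 0.05. The differences were -0.75 for Nog (SE 0.35; adjusted p 0.498), -0.60 for Bmp5 (SE 0.25; adjusted p 0.381) and -0.22 for Bmp4 (SE 0.17; adjusted p 0.878). They were 0.25 for Bmp7 (SE 0.15; adjusted p 0.73), 0.24 for Chrd (SE 0.14; adjusted p 0.697) and 0.18 for Fst (SE 0.20; 95% interval -0.26 to 0.62; adjusted p 0.979). For 2 members, Bmp7 and Chrd, the stages did not overlap, where 21.2% of all tested genes did not. The Nog difference passed without closed E8.5 replicate 1 (-1.46, adjusted p 0.0227) and with the 3-prime covariate (-0.79, adjusted p 0.0468), and was -0.04 (adjusted p 0.982) without closed E8.5 replicate 2.

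Ordered by their means, Bmp4 and Bmp7 were highest in open E8.5 tissue, followed by open E9.5 tissue, with no overlap between these groups. Chrd had the same first and second groups, but they overlapped. Below them the closed groups of Bmp4 overlapped, those of Bmp7 and Chrd did not, and for Bmp7 the closed E9.5 group overlapped the open E9.5 group. Bmp5 was highest in closed E8.5 tissue and lowest in open E9.5 tissue, and of its neighbouring groups, open E8.5 and open E9.5 did not overlap. Fst had overlapping closed groups on top, then open E8.5 and, apart from it, open E9.5. Nog was highest in closed E8.5 tissue and Bmp2 in open E9.5 tissue, and neighbouring groups overlapped at every step for both.

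The rest of the pathway was read from 7 lists with 70 genes, of which 65 were analysed here and 55 passed the filter and were tested. At E9.5, 10 of 55 were past the threshold between the regions, 7 higher and 3 lower in closed tissue, where 8.54% of all tested genes passed (2.75% higher and 5.79% lower). At E8.5, 9 of 55 were, 7 higher and 2 lower, where 7.17% passed (3.79% higher and 3.38% lower). The median of the 55 was 0.07 at E9.5 and 0.01 at E8.5, beside -0.01 and 0.00 over all tested genes. With the replicate number as a block the E9.5 count was 19 of 55, while the count over all genes went to 2221 with the block, beside 1139 without. The E9.5 count was 5 without both open arrays of high 3-prime signal. The E8.5 count was 5 without closed replicate 2 and 5 with only the E8.5 groups fitted.

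Among the other secreted antagonists and modulators, 3 of 11 tested genes were higher in closed tissue at E9.5 and 2 of 11 at E8.5, with 0 lower. Bmper, a secreted BMP binding protein, had 8.15, 7.77 and 8.00 in closed E9.5 arrays, against 5.27, 5.65 and 5.69 in open E9.5 arrays. It had 7.67 and 7.47 in closed E8.5 arrays, against 4.72, 4.67 and 5.14 in open E8.5 arrays. It was 5.42-fold higher in closed tissue at E9.5 (2.44, SE 0.17, adjusted p 2.42e-06) and 6.60-fold higher at E8.5 (2.72, SE 0.19, adjusted p 2.77e-06). Grem1, the antagonist gremlin, was higher by 1.37 at E9.5 (adjusted p 0.00157) and 0.93 at E8.5 (adjusted p 0.0389). Its closed E8.5 arrays had 4.89 and 5.67, against 4.31, 4.25 and 4.51 in open E8.5 arrays. The 5.67 came from closed E8.5 replicate 2, the array with high somite markers, whose part in it was not tested. In open E9.5 arrays Grem1 had 4.05, 4.46 and 4.31, near or under the filter, as its open E8.5 values were. Sostdc1, which binds BMPs and Wnt co-receptors, was higher by 1.23 at E9.5 (adjusted p 0.00463) and differed by 0.56 at E8.5 (adjusted p 0.327). Its open E9.5 arrays had 3.74, 3.98 and 4.23, all under the filter, against 5.41, 4.67 and 5.55 in closed E9.5 arrays. Signal near the floor is compressed, so the sizes of the Grem1 differences and of the Sostdc1 difference at E9.5 are uncertain. Twsg1, a chordin partner, differed by -0.03 at E9.5 and 0.00 at E8.5. Fst and Bmper both had more signal in closed tissue at both stages, and Chrd had less at E8.5.

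None of the 5 tested other BMP-type ligands passed in limma between the regions, with 1 at an unadjusted p under 0.05 at E9.5 and 0 at E8.5. Of 4 activin and nodal ligand genes, Nodal differed by -0.57 at E9.5 (adjusted p 0.0694) and was lower in closed tissue at E8.5 (-1.10, SE 0.19, adjusted p 0.00369). Of the proteases, Bmp1, which cuts chordin, was lower in closed tissue at E9.5 (-0.44, adjusted p 0.0327), the 1 of 4 tested.

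Of 13 receptors and co-receptors, 2 were higher and 1 lower in closed tissue at E9.5, and 3 were higher and 1 lower at E8.5. Acvr2a, a type II receptor, was higher by 0.84 at E9.5 (adjusted p 0.00186) and 0.79 at E8.5 (adjusted p 0.00615). Rgma, a BMP co-receptor, was higher by 1.13 (adjusted p 0.027) and 1.26 (adjusted p 0.0323) at the same stages, and its highest value, 8.45, was that of closed E8.5 replicate 2, the array with high somite markers. Acvr1b, a type I receptor for activin and nodal, was lower at E9.5 (-1.09, adjusted p 0.000179) and differed by -0.16 at E8.5 (adjusted p 0.8), and this change between stages passed (-0.93, SE 0.19, adjusted p 0.045). It was the 1 pathway gene to do so. The type I BMP receptor Bmpr1b was higher at E8.5 (0.53, adjusted p 0.0437). Bambi, a pseudoreceptor that damps the signal and is itself a BMP response gene, differed by -0.79 at E9.5 (adjusted p 0.0534) and was lower at E8.5 (-1.44, adjusted p 0.00344). The other type I receptor Bmpr1a did not pass, with -0.15 at E9.5 (adjusted p 0.439) and 0.03 at E8.5 (adjusted p 0.979).

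None of the 9 tested Smads and ubiquitin ligases passed in limma between the regions, with 2 at an unadjusted p under 0.05 at either stage. Of 12 response genes, 2 were higher and 1 lower in closed tissue at each stage. Id3, an inhibitor of basic helix-loop-helix factors, had 10.30, 10.33 and 10.59 in closed E9.5 arrays, against 8.05, 7.90 and 8.82 in open E9.5 arrays. It had 10.93 and 11.70 in closed E8.5 arrays, against 8.88, 9.24 and 8.79 in open E8.5 arrays. It was 4.44-fold higher in closed tissue at E9.5 (2.15, SE 0.25, adjusted p 0.000149) and 5.08-fold higher at E8.5 (2.34, SE 0.28, adjusted p 0.00021). Its relatives Id1 and Id2 did not pass. Id1 differed by 0.11 at E9.5 (adjusted p 0.936) and 0.00 at E8.5 (adjusted p 0.999), and Id2 by -0.17 (adjusted p 0.468) and -0.34 (adjusted p 0.151). Atoh8 was higher at E9.5 (0.79, adjusted p 0.0107) and Msx2 at E8.5 (0.79, adjusted p 0.00858), while Hey1 was lower at E9.5 (-1.10, adjusted p 0.00129). At each stage 9 of the 12 response genes had no call, which with so few arrays does not show that a gene was unchanged. In limma 6 of the 12 had an unadjusted p under 0.05 at E9.5 and 5 of the 12 at E8.5. The relation of these genes to the lower Bmp4 signal of closed tissue was not tested. Of the response genes called, only Id3 was the same at both stages, and the lower gene was Hey1 at E9.5 and Bambi at E8.5. Over all tested genes, 8.54% passed at E9.5 and 7.17% at E8.5, smaller shares than among the 12 response genes.

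**Figure D5:**
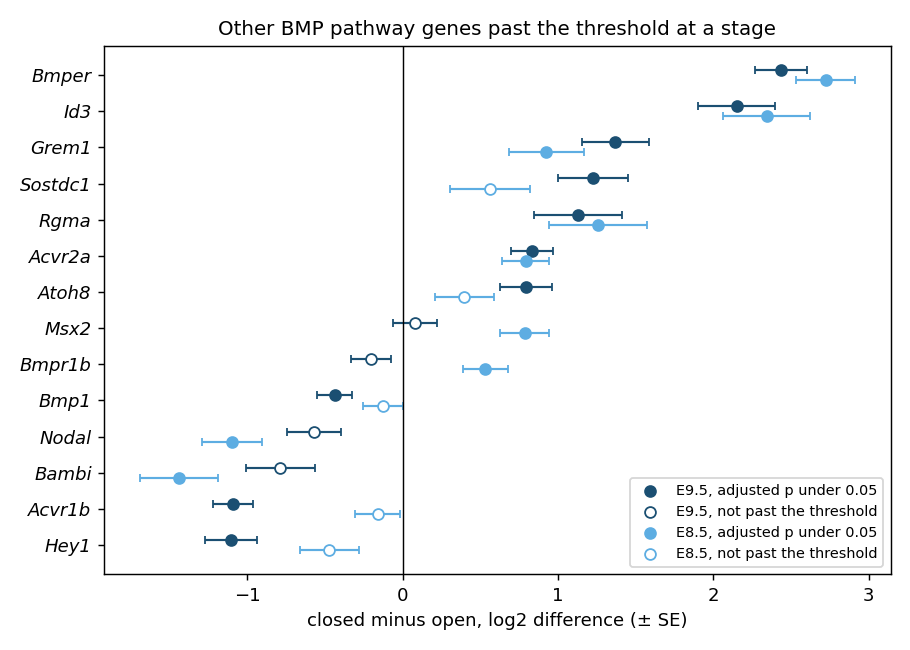
Closed minus open difference in log2 signal (horizontal axis, with SE) for the 14 other pathway genes past the threshold at either stage, at E9.5 (dark) and E8.5 (light). Filled points passed an adjusted p of 0.05. Bmper and Id3 lie above 2 at both stages, and Acvr1b and Hey1 passed on the lower side at E9.5.

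Between the stages in open neuroepithelium, 11 of the 55 pathway genes passed, 9 higher and 2 lower at E9.5, where 5.02% of all tested genes passed (3.61% higher and 1.42% lower). Acvr1b rose most, by 1.02 (adjusted p 0.000787), and Acvr2a by 0.76 (adjusted p 0.00598). Bmper rose by 0.70 (adjusted p 0.0347), the opposite direction to Fst, and Smad7, an inhibitory Smad, by 0.69 (adjusted p 0.0497). Also higher were Hey1 (0.88, adjusted p 0.00993), Bmpr1b (0.65, 0.011), Inha (0.55, 0.00578), Smad3 (0.49, 0.0215) and Bmp1 (0.47, 0.035). Fstl1, a follistatin-like protein, fell by 0.89 (adjusted p 0.0364) and Atoh8 by 0.67 (adjusted p 0.0404). This count ranged from 1 to 27 over the alternatives tried. In closed neural tube 1 of 55 passed, Acvr2a, which rose by 0.81 (adjusted p 0.0161), a share no larger than the 2.42% of all tested genes.

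The genes whose signal ran most like each member were taken among 955 tested genes with an SD of at least 0.5 over the arrays. The measure is Pearson's r over the 11 arrays, which share the same 4 groups, so it mostly follows the group means and is a description only. Fst ran most like Ccnd2 (0.98), Rfx4 (0.97) and Ndnf (0.97). Bmp4 ran most like Sp5 (0.97), Vwa5a (0.95) and Jakmip1 (0.94), and Bmp5 like Arid5b (0.96), Sdc4 (0.93) and Tfap2c (0.92). Chrd and Bmp7 had Col13a1 in common (0.90 and 0.89). Chrd also ran like Pof1b (0.91) and Evx1 (0.90), and Bmp7 like St8sia6 (0.91) and Phlda2 (0.90). Nog ran most like Crabp1 (0.94), Gli1 (0.92) and 2610301B20Rik (0.90), in a ranking that includes its 1 high array. Bmp2, near the floor of the array, reached 0.80 with Hoxd13, 0.76 with Insr and 0.72 with Lamb1.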

How the data were processed

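RNA of 11 mouse tissue samples was measured on 11 one-colour Affymetrix arrays of 45101 probe sets. The authors deposited log2 signal, from 2.37 to 14.72, and the arrays' medians lie between 4.80 and 4.90. The submitters' processing notes name MAS5 without a role. How background was corrected, probes summarised and arrays normalized is not given in the sources used here, and detection calls were not used. Signal near the floor is compressed: 63.9% of 18040 probe sets below the filter repeat a value between arrays, against 31.7% of those above it.

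Probe sets with several symbols (932), none (9160) or a control name (64) were left out. The symbols came from the platform annotation, and 0 of the rest changed when checked by gene ID. Each gene was taken as its probe set of highest mean, filtered at the 40th percentile, and fitted as 4 group means by the lmFit and trended eBayes functions of limma 3.58.1 (R 4.3.3), with 7 residual degrees of freedom. The scripts were tested on simulated data. Genes named are the 7 members, up to 2 listed pathway genes of smallest adjusted p per direction, list and comparison or listed genes whose call is described, and the 3 genes most like each member. Twsg1, Id1, Id2 and Bmpr1a were named after their values were seen. The members and lists were chosen with earlier results of these data known.

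Same-numbered closed and open arrays shared their deviations from the group means over genes. Their r was 0.308, 0.341 and 0.687 at E9.5 and 0.576 and 0.697 at E8.5. The numbers were therefore used as a block in an alternative fit, while the main fit took the arrays as unpaired. With 2 closed arrays at E8.5, the deviations of these arrays are mirror images, so the values of r there are not independent. The labels do not state a pairing, and closed replicate 1 with open replicate 2 at E9.5 reached 0.317. Alternatives were other normalizations, filters, probe-set rules and variance models, array weights, the replicate block, the 3-prime signal as a covariate and each array left out.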

Additional observations from a re-analysis of the deposited data

Results flagged for a closer look

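The region difference of Fst was not the same at both stages: closed minus open was 3.11 at E9.5 and 1.27 at E8.5, and the test of the change itself gave 1.84 on the log2 scale (limma interaction, adjusted p 0.00588). The leading Fst probe set was higher in every closed array than in every open array of its stage, so both stages share a direction and differ in size. Its open E9.5 arrays lay not far above the filter, at 4.57 to 5.07, so the size of the change is uncertain. Over the alternatives the change ranged from 1.45 to 2.12, with adjusted p from 0.00129 to 0.0716. The mean of both Fst probe sets gave the lowest value and did not pass.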

How the results depend on the processing

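Each result was recomputed under 24 alternatives, 11 of which leave out 1 array, except that Nog has 23, since it falls below the filter at the 60th percentile. At E9.5 the count of 2 members past the threshold was 1 without both open arrays of high 3-prime signal and 1 to 3 with single arrays left out. At E8.5 it was 4 or 5 under each of the 24, but the members counted were not always the same. They changed when either closed E8.5 array was left out, which leaves that group with 1 array. Those affected were Bmp4 (-0.74) and Nog (1.29) without replicate 1, and Chrd (-0.66) and Bmp5 (1.03) without replicate 2. Between stages in open tissue the count of 1 became 3 with array weights, and 2 with only the groups compared or with the 3-prime covariate. In closed tissue the count of 0 became 1 with that covariate and was 0 to 1 with single arrays left out. The interaction count of 1 became 0 with the mean of all probe sets, where limma gave 2 members an unadjusted p under 0.05. With the replicate block the counts were 3 at E9.5, 4 at E8.5, 1 and 0 for the stages in open and closed tissue and 1 for the interaction, and among the members it changed the call of Bmp5 at E9.5 alone.

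Signs turned only for differences that had not passed. Nog at E9.5 became -0.23 with the covariate and -0.27 without both open arrays, and its stage difference in open tissue 0.22 and 0.098. With single arrays left out, Nog at E8.5 ran from -0.13 to 1.29 and its interaction from -1.11 to 0.31, and the stage difference of Fst in closed tissue from -0.10 to 0.46. The interaction of Bmp4 ran from -0.052 to 0.23 and that of Bmp5 from -0.35 to 0.39. For Bmp5 it was also -0.0014 with arrays centred on their median and -0.13 with array weights. The cause was not tested. A group left with 1 array took its spread from the other groups.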
